A study of Caenorhabditis elegans with 12 samples.

Results

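The metal-handling genes followed across the study were the metallothionein genes mtl-1 and mtl-2, the ferritin genes ftn-1 and ftn-2, the divalent metal transporter genes smf-1, smf-2 and smf-3, and the cadmium-responsive gene cdr-1, 8 in all of 17118 genes measured. They were found by matching their symbols to the array's probe-to-gene annotation, which gave 11 probe sets of 22548 tested. Each probe set had that symbol alone. mtl-2 had 3 probe sets and ftn-2 had 2, and the other genes had 1 each.

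RNA came from whole young adult hermaphrodites of wild-type Caenorhabditis elegans and was measured on 12 Affymetrix arrays, 3 for each of 4 groups. Control worms spent 24 h at 20 °C in a potassium and sodium chloride medium without food, and the TiO2 group had titanium dioxide in that medium. UV worms were irradiated for 4 h and then kept in the same incubator as the others for 20 h, and the UV+TiO2 group received both. All 4 groups were therefore unfed, and the doses of UV and TiO2 are not given in the sources used here. Whether the 3 arrays of a group represent separate cultures is not stated, so each p-value reflects the spread among these samples alone, and that spread may be technical. Values are log2 expression levels, so a difference of 1 is a doubling.

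Worms take up iron, manganese and zinc from food through transporters of the gut, among them the NRAMP family to which the smf genes belong. Spare iron is stored inside ferritin shells, and metallothioneins, small proteins rich in cysteine, bind zinc and cadmium. Several of these genes are active mainly in the intestine, where GATA factors such as ELT-2 drive them. ftn-1 is known as a gene repressed when iron is low, and mtl-1, mtl-2 and cdr-1 as genes induced by cadmium.

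Metallothionein RNA was lower on every UV array, and mtl-1 fell far more than mtl-2. The mtl-1 probe set read 10.87, 10.71 and 10.33 in control worms and 10.13, 10.50 and 10.64 with TiO2. After UV it read 5.86, 4.88 and 5.29, and with both 5.21, 5.46 and 4.97. The 6 UV arrays lay below the 6 arrays without UV by at least 4.27. mtl-1 fell from 10.64 ± 0.28 (SD, n = 3) to 5.34 ± 0.49 with UV alone, a log2 change of −5.29 (standard error 0.23) or 39.2-fold, with a limma adjusted p = 2.17e-09. Only 6 of all probe sets had a lower log2 change in UV against control. After UV its signal was in the lower part of the array's range, where 28.6% of probe sets had a lower UV mean. In RNA of whole worms, fewer cells of a type and less RNA per cell cannot be told apart.

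mtl-2 fell by less than mtl-1 on all 3 of its probe sets. The first read 9.30, 9.83 and 9.71 in control worms, 9.40, 9.57 and 9.49 with TiO2, 8.21, 8.15 and 8.05 with UV, and 8.22, 7.96 and 8.26 with both. Again no UV array reached any array without UV, here with a gap of 1.05. Its log2 change was −1.47 (SE 0.13, limma adjusted p = 1.26e-06) for UV alone. The second probe set changed by −1.70 (SE 0.096) and the third fell 2.29-fold, both past limma's threshold. Names of all 3 probe sets end in _s_at or _x_at, which marks probes that can match related sequences, so their values may include RNA of other genes. The same holds for the probe sets of ftn-1, ftn-2 and smf-1.

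Ferritin RNA fell as well. ftn-1 read 11.44, 11.32 and 11.28 in control worms, 11.36, 10.92 and 10.63 with TiO2, 6.90, 6.91 and 6.74 with UV, and 7.22, 7.09 and 7.14 with both. The UV arrays of a group lay close together, and a gap of 3.40 separated them from the nearest array without UV, the third TiO2 replicate. From control to UV the level went from 11.35 ± 0.09 to 6.85 ± 0.10, a log2 change of −4.50 (SE 0.15) or 22.6-fold (limma adjusted p = 1.9e-10).

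ftn-2, the ferritin gene known for broader activity across tissues, fell on both probe sets. The first read 12.84, 12.73 and 12.93 in control worms, 12.59, 12.82 and 12.65 with TiO2, 10.02, 9.98 and 9.74 with UV, and 9.73, 9.15 and 9.54 with both. Its UV arrays stayed 2.58 or more below the others, and the log2 change for UV alone was −2.92 (SE 0.14), which is 7.57-fold (limma adjusted p = 4.02e-09). The other probe set, of the _x_at kind, changed by −1.69 (SE 0.11), from 9.51 ± 0.16 to 7.82 ± 0.14. Both probe sets therefore gave the same direction and different sizes.

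**Figure D1:**
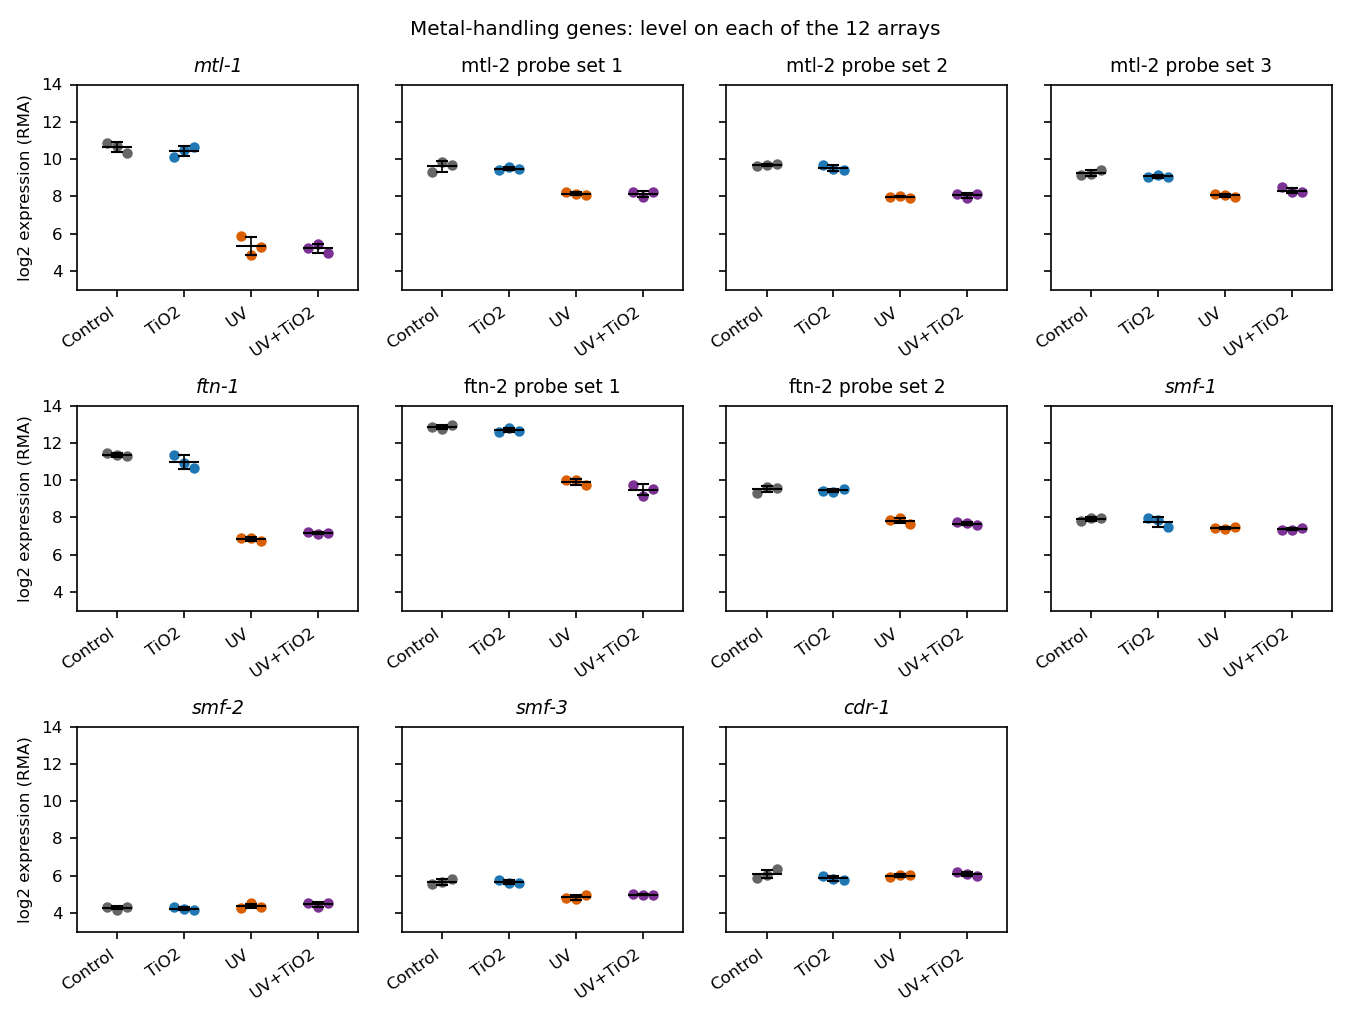
Log2 expression (vertical axis) of the 11 probe sets of the 8 metal-handling genes on each of 12 arrays, by group on the horizontal axis; points are arrays, bars the group mean and SD (n = 3). All probe sets of mtl-1, mtl-2, ftn-1, ftn-2 and smf-3 are lower on every UV array than on any array without UV, most in mtl-1 and ftn-1, while the arrays overlap for smf-1, smf-2 and cdr-1.

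The transporter genes moved little and not alike. smf-3, whose product is known for metal uptake at the surface of the gut, read 5.53, 5.65 and 5.85 in control worms, 5.76, 5.61 and 5.60 with TiO2, 4.80, 4.73 and 4.99 with UV, and 5.01, 4.99 and 4.96 with both. The 6 UV arrays were again below the other 6, by 0.52 or more. It fell by 0.84 on the log2 scale with UV alone (SE 0.10, limma adjusted p = 1.79e-05). A further probe set, annotated to smf-3 and its neighbour daao-1 together and so not counted here, had no value above 5.28 and changed by 0.01 (limma adjusted p = 0.914).

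smf-1, another transporter gene of the gut, read 7.82, 7.97 and 7.96 in control worms, 7.97, 7.87 and 7.47 with TiO2, 7.43, 7.37 and 7.47 with UV, and 7.33, 7.32 and 7.43 with both. UV and control arrays did not overlap, but the lowest TiO2 array reached the highest UV array. It fell by 0.49 (SE 0.12, limma adjusted p = 0.00353), a call that ended when the arrays were quantile-normalized again (−0.22, limma adjusted p = 0.202, within 0.000214 to 0.202 over all settings). smf-2, known mainly from the pharynx, read between 4.15 and 4.53 on all 12 arrays, with overlapping groups. Its log2 change for UV was 0.10 (SE 0.096, limma adjusted p = 0.405), close to the median of all probe sets, 0.11. Its signal was near the bottom of the array, with 8.71% of probe sets lower in the control mean. Once array medians were set equal, smf-2 rose by 0.28 (limma adjusted p = 0.0177), and with arrays weighted it rose by 0.26 (adjusted p = 0.0234). That weighting gave UV replicate 2 the largest weight of the 12 arrays, 5.82, and its smf-2 value of 4.53 was the highest of the UV group. Equal medians add 0.18 to every probe set in this comparison, and 54.2% of all were then called higher. Over all settings the adjusted p of smf-2 ran from 0.0177 to 0.872.

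cdr-1, which encodes an intestinal lysosomal protein induced by cadmium, read 5.89, 6.03 and 6.35 in control worms, 6.01, 5.80 and 5.79 with TiO2, 5.92, 6.02 and 6.06 with UV, and 6.19, 6.07 and 6.01 with both. UV and control arrays overlapped. The log2 change was −0.09 for UV (SE 0.12, 95% interval −0.34 to 0.17, limma adjusted p = 0.554) and −0.22 for TiO2 (SE 0.12, interval −0.48 to 0.03, adjusted p = 1).

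For UV against control 9 of the 11 probe sets, belonging to 6 of the 8 genes, fell and none rose, where 50.6% of all probe sets were called, 23.1% falling and 27.5% rising. The median log2 change was −1.47 over the 11 probe sets and 0.11 over all. Arrays of the 2 groups did not overlap for the same number, 9, with 24.7% of all probe sets lower without overlap. All 6 UV arrays lay below all 6 without UV for 8 of the 11, against 20.5% of all, the exceptions being smf-1, smf-2 and cdr-1. The joint exposure against control, which uses the same control arrays, also lowered 9 probe sets (54.5% of all called, 31.9% rising and 22.6% falling), with mtl-1 at −5.42, ftn-1 at −4.19 and the first ftn-2 probe set at −3.36. Limma's F-test over the 4 groups called 9 of the 11, against 55.5% of all probe sets.

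**Figure D2:**
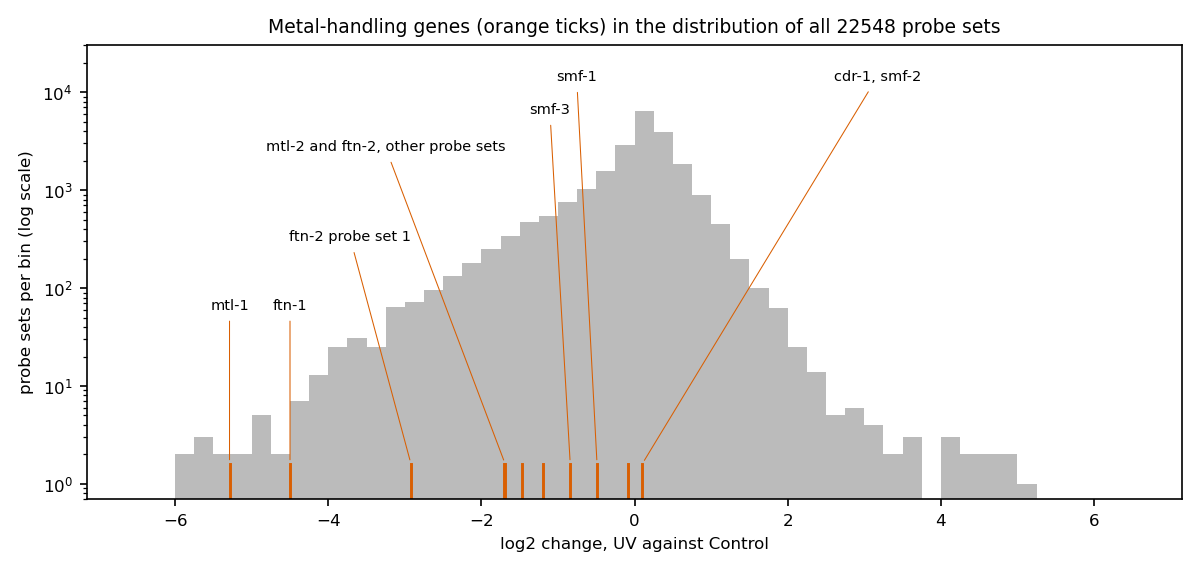
Log2 change for UV against control (horizontal axis, bins of 0.25) of all probe sets tested, counted on a log scale; orange ticks mark the 11 metal-handling probe sets. mtl-1 at −5.29 and ftn-1 at −4.50 lie at the left end, and smf-2 and cdr-1 near the centre.

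The fall with UV was measured again on arrays that share none with the first comparison, as UV+TiO2 against TiO2. Here too 9 of 11 probe sets, all but smf-2 and cdr-1, fell (54.5% of all called, 32.3% rising and 22.2% falling) with a median of −1.34 against 0.15 over all. mtl-1 changed by −5.21 (SE 0.23), beside −5.29 without TiO2. ftn-1 changed by −3.82 (SE 0.15), beside −4.50, and the first ftn-2 probe set by −3.21 (SE 0.14), beside −2.92. smf-3 changed by −0.67 and smf-1 by −0.41. smf-2 (0.23, limma adjusted p = 0.0597) and cdr-1 (0.22, adjusted p = 0.118) did not pass, although their UV+TiO2 and TiO2 arrays did not overlap, as was so for 42.2% of all probe sets in the upward direction. Both rose once array medians were set equal, smf-2 by 0.35 (limma adjusted p = 0.00571) and cdr-1 by 0.34 (adjusted p = 0.0103), and with array weights. Under equal medians 51.3% of all probe sets were called higher here, against 32.3%. cdr-1 also passed with quantile normalization, and smf-2 with limma's intensity-dependent prior and without UV+TiO2 replicate 2 (0.30, adjusted p = 0.038). Over all settings the adjusted p ran from 0.00571 to 0.256 for smf-2 and from 0.0103 to 0.301 for cdr-1.

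TiO2 without UV gave no call for any of the 11 probe sets (limma, 0.00443% of all probe sets called), and 1 of them had an unadjusted p under 0.05, with 4.55% of all probe sets. That was ftn-1, at −0.38 (SE 0.15, 95% interval −0.70 to −0.06, limma adjusted p = 1), whose first TiO2 array at 11.36 lay within the control arrays. All 11 log2 changes were below 0, from −0.38 to −0.02 with a median of −0.15, where the median over all probe sets was 0.00. They share the control arrays, and some share a gene. For mtl-1 the log2 change was −0.21 with an interval from −0.71 to 0.29.

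Under UV, TiO2 likewise gave no call among the 11 (limma, 0.0887% of all called), with 2 at an unadjusted p under 0.05 where 6.14% of all probe sets were. The first ftn-2 probe set was lower, at −0.44 (SE 0.14, limma adjusted p = 0.452), and the third mtl-2 probe set higher, at 0.26 (SE 0.10, adjusted p = 0.704). ftn-1 was at 0.30 (SE 0.15, adjusted p = 0.819). In all 3 cases the UV+TiO2 and UV arrays did not overlap, which held for 9.85% of all probe sets in the upward and 8.27% in the downward direction. The other 2 mtl-2 probe sets were at 0.01 and 0.07, so the third one's value was not shared by them, and the second ftn-2 probe set was at −0.16.

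The interaction, which asks whether the response to UV differs with TiO2, passed for none of the 11 probe sets nor for any other by limma (0.0% called, with 5.15% of all at an unadjusted p under 0.05). ftn-1 had the largest value of the 11, 0.68 (SE 0.21, interval 0.24 to 1.13, unadjusted p = 0.0059, limma adjusted p = 0.827). The smaller fall of ftn-1 with TiO2 present combined a lower mean without UV (10.97 against 11.35) and a higher one with it (7.15 against 6.85). When arrays were weighted by their fit to the group mean, the interaction of ftn-1 passed (0.78, limma adjusted p = 0.0408, with 0.0408 to 1 over all settings), among 0.976% of all probe sets called under that weighting. The third mtl-2 probe set had an interaction of 0.44 (SE 0.15, unadjusted p = 0.012, adjusted p = 0.898).

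**Figure D3:**
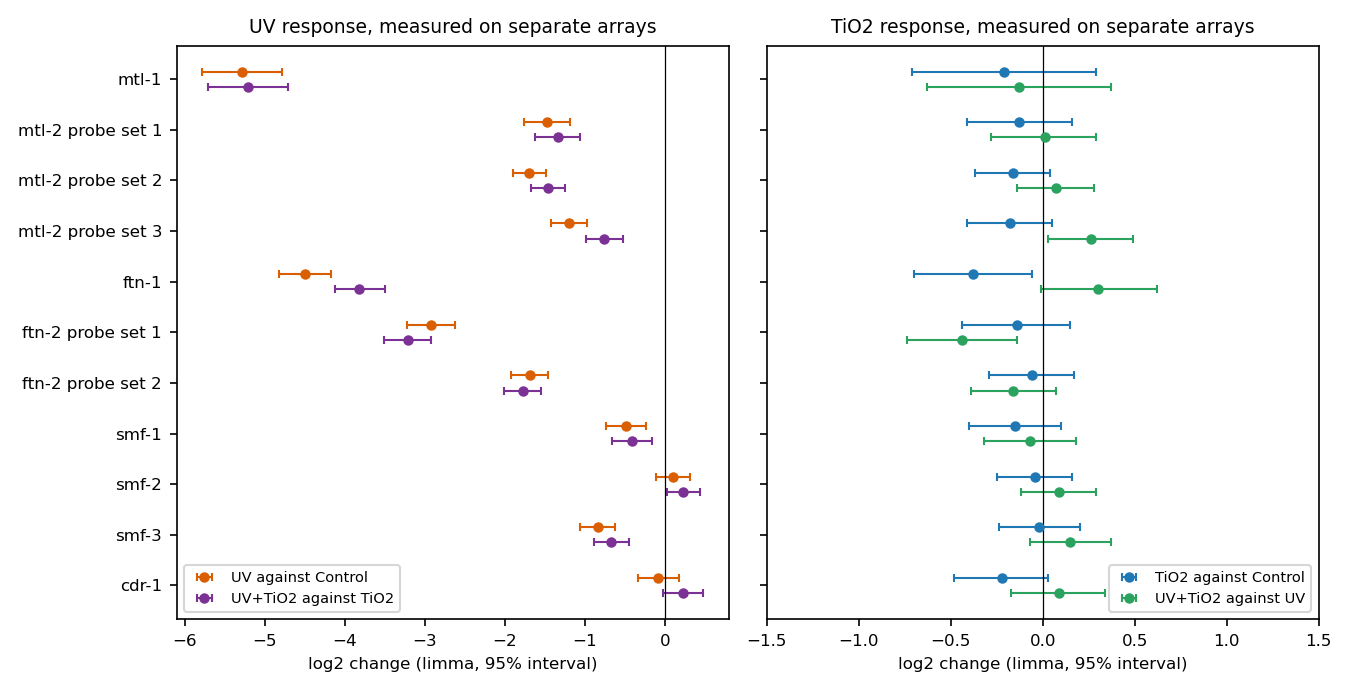
Log2 change with its 95% interval (horizontal axis, limma) for each metal-handling probe set. The left panel gives the UV response without and with TiO2, each from its own 6 arrays, and the right panel the TiO2 response without and with UV on a narrower axis; mtl-1, ftn-1 and ftn-2 lie far left of 0 in the left panel, and most intervals in the right panel include 0.

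The group means of mtl-1 ran, from high to low, control (10.64), TiO2 (10.42), UV (5.34) and UV+TiO2 (5.21), and only the step from TiO2 to UV exceeded the spread between arrays. Those of ftn-1 ran control (11.35), TiO2 (10.97), UV+TiO2 (7.15) and UV (6.85), where the first step lay within overlapping arrays and the last did not pass limma's test. The first ftn-2 probe set followed the order of mtl-1, with 12.83, 12.69, 9.91 and 9.47.

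The metallothionein genes fell by different amounts. Taking the difference between a pair of probe sets within each array removes any shift common to the array, and the UV labels were then permuted exactly within each TiO2 state, 400 arrangements whose smallest possible two-sided p is 0.005, for 12 pairs. The UV response of mtl-1 minus that of the first mtl-2 probe set was −3.85 on the log2 scale (−5.25 against −1.41, averaged over both TiO2 states). Against the other mtl-2 probe sets it was −3.67 and −4.27, each with exact permutation p = 0.005 and 0.00546 after Benjamini-Hochberg adjustment. The pairs were tested after their values were seen, with the arrays already apart, so this p adds nothing to the sizes. The difference from that first probe set was −3.82 without TiO2 and −3.87 with it, and all 6 UV arrays showed it.

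The response of ftn-1 minus that of the first ftn-2 probe set was −1.09 (−1.58 without TiO2 and −0.60 with it), and minus that of the second −2.42 (exact permutation p = 0.005 for both, adjusted 0.00546). The 2 probe sets of ftn-2 themselves differed by −1.33 (exact permutation p = 0.005), so the gap of ftn-1 to the first ftn-2 probe set was smaller, and that to the second larger, than the gap between the probe sets of ftn-2. Among the mtl-2 probe sets the differences were 0.17, −0.43 and −0.60, well under the gap to mtl-1. As this test gave its smallest p also between probe sets of 1 gene, it does not separate genes at differences of that order. Among the smf genes the differences were of that order, with smf-2 minus smf-3 at 0.92, smf-1 minus smf-3 at 0.31 and smf-1 minus smf-2 at −0.62. The last became −0.25 after a further quantile normalization. smf-1 and smf-2 are immediate neighbours in the RefSeq gene order of assembly WBcel235, used here for gene order only.

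Genes next to the metallothionein and ferritin genes, where they had a probe set of their own, changed by less. K11G9.5, beside mtl-1, changed by −0.69 with UV alone, and F19F10.3, beside ftn-1, by −0.63. Both passed limma's threshold, and did so again for UV+TiO2 against TiO2, at −0.34 and −1.33. srh-308 and T08G5.1, on either side of mtl-2, changed by −0.10 and 0.10 (limma adjusted p = 0.471 and 0.511). smp-2 and rab-8, beside ftn-2, changed by 0.10 and −0.31, the latter past the threshold. For UV+TiO2 against TiO2 smp-2 was at 0.38, past the threshold, and rab-8 at −0.20, not past it. Neighbours of the other members did not all change by less than the members did. slc-25A10, beside smf-1, changed by −0.74 with UV alone and −1.04 for UV+TiO2 against TiO2. nas-11, beside smf-2, changed by −0.76 and −1.51, and ngn-1, beside smf-3, by −0.75 and −0.47, all past the threshold. nhr-108, beside cdr-1, changed by −0.31, past it, and −0.22, not past it.

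Other genes of metal handling moved in both directions with UV. Of 65 entries in 5 lists, 54 genes had a probe set with their symbol alone. With UV alone 14 rose and 19 fell, with a median log2 change of −0.09, where 27.5% of all probe sets rose and 23.1% fell around a median of 0.11. Under equal array medians the split became 22 and 15, so the share of rises among calls went from 42.4% to 59.5%. Over all probe sets that share went from 54.3% to 74.6% under the same scaling, which adds 0.18 to every log2 change of UV against control. None of the 54 passed for TiO2 against control, for UV+TiO2 against UV or for the interaction (limma, smallest adjusted p = 0.798, 0.205 and 0.898).

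Zinc genes held the largest falls of these lists. Of 20 genes 9 fell and 3 rose with UV alone (median −0.18), where 23.1% of all probe sets fell and 27.5% rose. zipt-2.1, of the ZIP family of zinc importers, fell from 8.11 ± 0.25 to 5.37 ± 0.07 (log2 change −2.74, SE 0.12). haly-1, a histidine ammonia-lyase gene linked to zinc tolerance, changed by −2.16. The zinc transporter genes ttm-1 and cdf-2, known for export and for storage in gut granules, changed by −1.65 and −1.46. With both exposures zipt-2.1 changed by −2.92 and haly-1 by −2.83 against control. For UV+TiO2 against TiO2 11 zinc genes fell and 4 rose, where 22.2% of all probe sets fell and 32.3% rose. The rises with UV alone were zipt-15 (0.72), zipt-11 (0.54) and zipt-9 (0.45). hizr-1, the nuclear receptor gene known as the sensor of high zinc, was lower by a change of −0.39 at a low level of 4.82 in control worms.

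Genes of the heavy metal response did not follow mtl-1. Of 10 measured, 5 rose and 2 fell with UV alone (median 0.22), where 27.5% of all probe sets rose and 23.1% fell. The P-glycoprotein gene pgp-3 rose from 6.13 ± 0.46 to 8.07 ± 0.08, a log2 change of 1.94 (SE 0.21), and cdr-4 by 1.11 (SE 0.12). The phytochelatin synthase gene pcs-1 rose by 0.63 and the transporter gene hmt-1 by 0.78. cdr-2 changed by −0.94 and the transporter gene mrp-1 by −0.76, the latter by −1.12 with both exposures. Members of the cdr family thus moved apart with UV alone, cdr-4 up and cdr-2 down. cdr-1 (−0.09), cdr-3 (0.14) and cdr-6 (−0.14) were not past the threshold. For UV+TiO2 against TiO2 3 of the 10 rose and 3 fell, where 32.3% of all probe sets rose and 22.2% fell. There pcs-1 (0.26, limma adjusted p = 0.116) and hmt-1 (0.31, adjusted p = 0.128) did not pass. cdr-6 was lower in that comparison (−0.48, limma adjusted p = 0.0115).

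Among iron and heme genes 3 rose and 3 fell of 12 (median 0.12), near the share of all probe sets (27.5% and 23.1%, median 0.11). fpn-1.1, a ferroportin-like iron exporter gene, rose by 0.73 (SE 0.11), the frataxin gene frh-1 by 0.77 and the iron-sulphur scaffold gene iscu-1 by 0.52. The heme transporter gene hrg-1 changed by −0.99 and mrp-5, known for heme export from the gut, by −0.52. aco-1, the cytosolic aconitase related to iron regulatory proteins, was at −0.14 (limma adjusted p = 0.435). Of 5 copper and manganese genes 3 rose: sco-1 (0.79), the copper chaperone gene cuc-1 (0.75) and the copper pump gene cua-1 (0.73), the last with arrays that overlapped between groups and a limma adjusted p = 0.03 that ran from 0.000551 to 0.119 over all settings.

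Of 7 measured genes known as regulators of the members, 5 fell and none rose with UV alone (median −0.56). Over all probe sets 23.1% fell and 27.5% rose, with a median of 0.11. pqm-1 changed by −1.78, the intestinal GATA factor genes elt-7 and elt-2 by −1.61 and −1.01, and the insulin-pathway factor gene daf-16 by −0.56. skn-1 (0.45, limma adjusted p = 0.0504) and vhl-1 (0.31, adjusted p = 0.0891) were above 0 and not past the threshold. In UV+TiO2 against control and against TiO2 5 of the 7 fell and 1, skn-1, rose. Its changes there were 0.56 and 0.51 (limma adjusted p = 0.0181 and 0.0291). hif-1 and egl-9, of the hypoxia pathway known to act on ftn-1 and smf-3, lie on probe sets shared with other genes and were not analysed here.

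**Figure D4:**
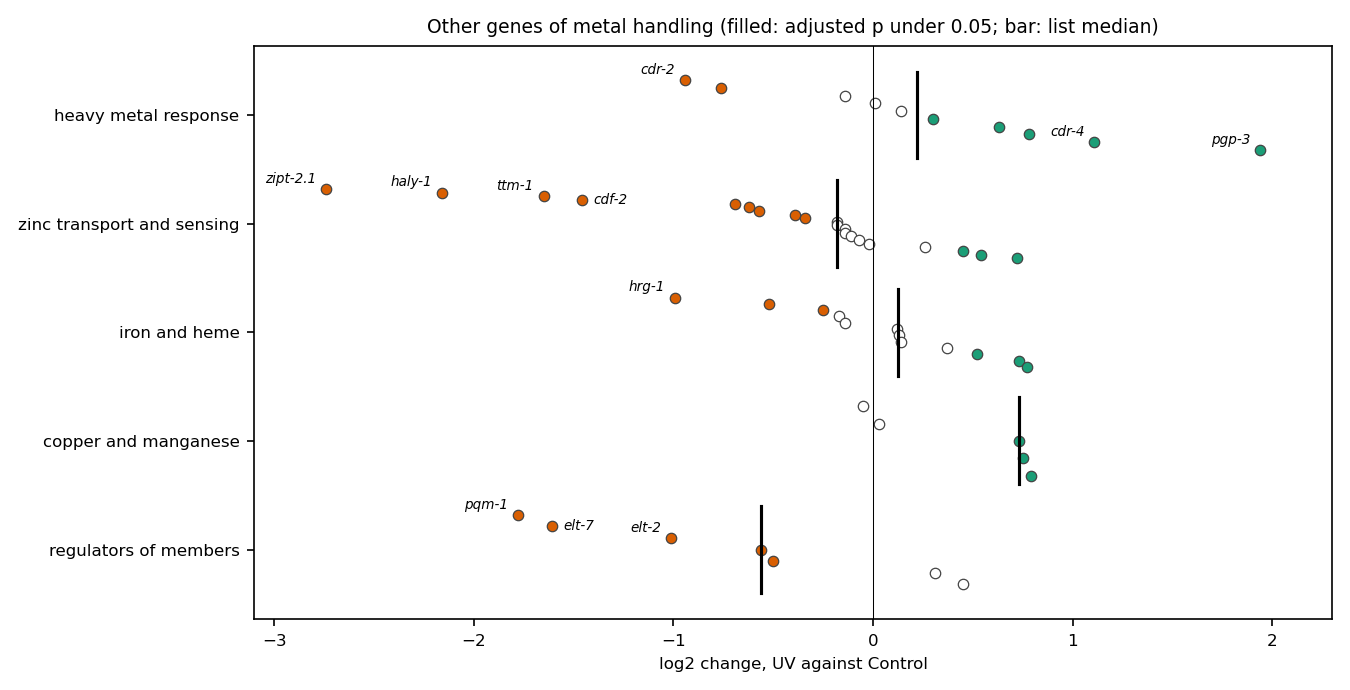
Log2 change for UV against control (horizontal axis) of 54 other genes of metal handling, in 5 lists; filled points passed limma's threshold, orange below and green above 0, and vertical bars are list medians. Zinc genes reach −2.74, the heavy metal genes reach 1.94, and the medians lie between −0.56 and 0.73.

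Markers of several tissues fell with UV and those of others rose, where 23.1% of all probe sets fell and 27.5% rose with UV alone. Of 13 intestinal marker genes 10 fell and none rose with UV alone (median −1.14), including the filament gene ifb-2 (−2.97), the actin gene act-5 (−1.84) and the esterase gene ges-1 (−1.24). Their mean log2 level lay between 9.22 and 9.35 on control arrays, 9.24 and 9.29 with TiO2, 8.12 and 8.25 with UV, and 8.16 and 8.38 with both. The lowest of them, nhx-2, averaged 5.08 over all arrays. elt-2 and elt-7, counted among the regulators above, are also among these 13 intestinal markers. All 7 pharynx markers fell (median −1.49), as did 11 of 14 neuron markers (median −1.08) and 6 of 10 of body wall muscle, where 1 rose. Of 8 sperm markers 6 rose (median 1.34), and of 6 of the hypodermis and adult cuticle 4 rose and 2 fell (median 0.78). Among 10 markers of oocytes and early embryos 6 rose and 1 fell (median 0.23). cdr-1, a gene of the gut, and smf-2, known from the pharynx, did not pass. The signal of smf-2 (4.28 in control worms) was near the bottom of the array, and whether that hid a fall was not tested. Yolk protein genes of the adult gut were mixed, with vit-1 higher (3.38) and 3 of 5 lower. Of 12 genes typical of late embryonic and larval stages 10 fell (median −3.38), with a mean level of 10.20 to 10.44 in control and 7.25 to 7.33 in UV worms. The part of any marker list in the falls of mtl-1, ftn-1, ftn-2 and mtl-2 was not tested.

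Many genes shared the pattern of the members over the 12 arrays, as a description. For mtl-1 the highest Pearson correlations belonged to K04G2.9 (0.998), col-74 (0.997) and gda-1 (0.997), and 1534 of 17117 other genes reached 0.95. For ftn-1 they belonged to mxl-3 (0.998), C18B12.4 (0.998) and ZK675.4 (0.997), with 1515 genes at 0.95 or more. For mtl-2 they were oaz-1 (0.996), Y17D7B.4 (0.995) and flp-5 (0.995). The split between arrays with and without UV is common to all of these. For cdr-1, which had no such split, the highest value was 0.928 for glb-5, and 0 genes reached 0.95.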

How the data were processed

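The authors labelled RNA with biotin and hybridized it to Affymetrix arrays, per the labels' protocols. GCOS, the Affymetrix Expression Console and RMA are named in the submitters' processing notes, without versions. The deposited values are log2 expression per probe set, with array medians of 6.361 to 6.625 and SDs of 2.22 to 2.33. Such values are scaled per array, so a change in total RNA per worm would not show.

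Of 22625 probe sets 77 control probe sets were left out and no filter was set. Limma 3.58.1 in R 4.3.3 fitted group means to all 12 arrays (8 residual degrees of freedom), with Benjamini-Hochberg adjustment over 22548 probe sets and a threshold of 0.05. Other lists used 1 probe set per gene, the highest mean. Named genes are all members and up to 4 per list with the smallest p, and others named beside them were chosen after their values were seen. The permutation test of family differences was added after the values were seen. Members and lists were chosen with earlier results of these data known. The fit was tried on simulated data with independent noise and changes in few probe sets, for UV against control only. That trial does not bear on the TiO2 comparisons or the interaction. Alternatives were a replicate block, another prior variance, a filter on low values, quantile normalization, median centring, weighted arrays, a table with each gene represented by a single probe set, fits restricted to the groups compared, and omission of each array in turn.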

Additional observations from a re-analysis of the deposited data

How the results depend on the processing

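The 3 comparisons with UV kept the direction of every called member under the 20 settings tried, among them 12 in which 1 array was left out. Of 528 recomputed values of called changes 3 lost the call, all of smf-1 with quantile normalization (log2 changes −0.22, −0.25 and −0.12), and none turned. Without any 1 array 9 probe sets passed for UV and for UV+TiO2 against control, and 9 to 10 for UV+TiO2 against TiO2. Array weights gave 3 called members and 5 called list genes for UV+TiO2 against UV and 1 member (ftn-1) for the interaction, where there were 0. That setting called 1856 of all probe sets for UV+TiO2 against UV, up from 20, and 220 for the interaction, up from 0. Its weights ran from 0.279 for control replicate 1 to 5.82 for UV replicate 2. For UV+TiO2 against UV the members then called were the first ftn-2 probe set (−0.48), the third mtl-2 probe set (0.25) and smf-3 (0.23). The cause was not tested. Of recomputed values of uncalled member changes 15 passed and 16 had the other sign. The counts of list genes without 1 array ranged from 30 to 36 for UV, 27 to 33 for the joint exposure and 32 to 38 for UV+TiO2 against TiO2. Deviations of same-numbered replicates from their group means had correlations of −0.714 to 0.501, with 8 of 18 above 0.1. For other replicates the range was −0.509 to 0.618. Between control and UV arrays the same-numbered values were 0.501, 0.085 and 0.473, so whether numbers pair some arrays is not settled. With the replicate block the counts were 9, 9 and 9 members. The difference between smf-1 and smf-2 weakened with quantile normalization (−0.25), and that between the first and second mtl-2 probe sets ranged from 0.11 to 0.23 with 1 array left out, passing without control replicate 2. The number of arrays, and for smf-2, smf-3 and mtl-1 after UV the low signal, limits the precision.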
